A study of Mus musculus with 6 samples.

Results

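The genes described here are the 20 cytosolic aminoacyl-tRNA synthetases and 18 genes of the amino acid stress response, taken by gene symbol. The list was chosen with earlier results of these data known, so its shares beside all genes are a description only. All 38 were among the 15443 genes of the table, and all 38 passed the filter of a mean of at least 5 normalized counts (the lowest member mean was 10.1). The cells came from the bone marrow of C57BL/6J mice, wild type, and were cultured for 3 days with 50 ng/ml of the cytokine FLT3LG, which supports the growth of dendritic cells from marrow progenitors. The control group (replicates 1, 2 and 4) received FLT3LG alone. The midkine group (replicates 3, 4 and 5) received FLT3LG and recombinant human midkine, a heparin-binding growth factor, at 10 ng/ml. FLT3LG is thus shared by all 6 libraries, and the question was how midkine affects such cultures. Nothing in the labels ties a replicate to its own mouse or culture. The spread that the p-values rest on is that among these libraries and may be technical.

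Aminoacyl-tRNA synthetases attach each amino acid to its tRNA, the step that supplies charged tRNA to the ribosome. When charged tRNA runs short, the kinase GCN2 phosphorylates the initiation factor eIF2, which slows translation in general but favours translation of ATF4. ATF4 is a transcription factor that, with C/EBP partners, binds a composite DNA element and raises the transcription of many synthetases, of enzymes that make serine, asparagine and proline, and of amino acid transporters. Its own protein level is set largely by translation, so its mRNA need not follow its activity. In immune cells the pathway is known for linking amino acid supply to growth and to inflammatory responses.

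The ATF4/CEBP element was searched in the promoters because it is the sequence that the stress response acts through. RefSeq windows on GRCm38.p6, of 250 bases before and 50 bases from each annotated start, were matched for 30 of the 38 genes, 29 by symbol and 1 by gene ID. Lars, Rars, Cars, Hars, Nars, Vars, Wars and Slc7a5 had no match. The letters TGATGNAA, searched on both strands (TTNCATCA on the other), were held by 11 of the 30 windows. This was 36.7%, beside 2.92% of the windows of 9731 tested genes and 3.97% of 32851 windows in all. The form without a free base, TGATGCAA, was in 8 windows (26.7%, beside 0.791% of the tested genes' windows). Several of these genes are textbook ATF4 targets and were listed as such, so the share is not independent evidence. Matches of 10 of these genes are shown with their neighbouring bases, read 5′ to 3′ on the gene's strand, with the match in capitals and the position counted from the annotated start. The first set holds the form without a free base.
Iars (chr13:49682126-49682155, plus strand, match at 8): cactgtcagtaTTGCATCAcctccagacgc
Tars (chr15:11399655-11399684, minus strand, match at −15): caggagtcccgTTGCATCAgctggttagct
Yars (chr4:129189895-129189924, plus strand, match at 4): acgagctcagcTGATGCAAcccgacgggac
Chac1 (chr2:119351038-119351067, plus strand, match at −193): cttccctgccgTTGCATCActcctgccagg
Nupr1 (chr7:126625562-126625591, minus strand, match at −110): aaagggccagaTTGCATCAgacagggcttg
Pycr1 (chr11:120643833-120643862, minus strand, match at −103): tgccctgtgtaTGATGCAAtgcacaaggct
Slc7a11 (chr3:50443661-50443690, minus strand, match at −66): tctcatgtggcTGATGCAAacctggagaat
Slc7a11 (chr3:50443642-50443671, minus strand, match at −47): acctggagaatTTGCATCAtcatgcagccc
The second set holds the form with another base at the free position.
Gars (chr6:55037960-55037989, plus strand, match at −30): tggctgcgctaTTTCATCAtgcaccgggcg
Trib3 (chr2:152344028-152344057, minus strand, match at 15): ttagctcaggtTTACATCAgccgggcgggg
Asns (chr6:7693214-7693243, minus strand, match at −23): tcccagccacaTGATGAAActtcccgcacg
Among the genes shown, Slc7a11 held 2 matches. Those shown lay between position −193 (Chac1) and position 15 (Trib3).

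Of 2 other motifs, the MYC E-box CACGTG was in 6 of the 30 windows, beside 11.8% of those of tested genes, and the antioxidant response element TGACNNNGC in 7 (23.3%, beside 16.9%), both strands searched. The windows of Slc3a2 and Mthfd2 held no match to TGATGNAA. Both windows lie inside the gene's GENCODE M21 span (chr19:8706882-8723369 and chr6:83305691-83325908, minus strand). The region before the outermost start of either gene was thus not searched. The 250 bases before the start used are shown for both members. They were picked for the smallest adjusted p over the 6 libraries (Slc3a2) and without midkine 5 (Mthfd2).
Slc3a2 (chr19:8713898-8714147, minus strand): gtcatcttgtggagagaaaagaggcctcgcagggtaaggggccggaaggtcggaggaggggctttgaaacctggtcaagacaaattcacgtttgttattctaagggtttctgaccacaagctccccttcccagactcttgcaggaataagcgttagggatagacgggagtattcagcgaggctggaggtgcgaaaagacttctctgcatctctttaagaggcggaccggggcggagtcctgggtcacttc
Mthfd2 (chr6:83317605-83317854, minus strand): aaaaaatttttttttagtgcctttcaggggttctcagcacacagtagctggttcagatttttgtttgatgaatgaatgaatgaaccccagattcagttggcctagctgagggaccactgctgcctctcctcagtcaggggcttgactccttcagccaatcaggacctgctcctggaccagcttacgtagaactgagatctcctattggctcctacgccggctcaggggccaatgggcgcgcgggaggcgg
A match describes letters in a short window, and a window without one says nothing about the factor. For 23 of the 30 genes, the bases just after the start used were found somewhere in a GENCODE M21 transcript of that gene. This does not show that a transcript starts there. Mthfd2 was among the 23 and Slc3a2 was not. Of the genes whose matches are shown, Gars and Trib3 were not among the 23. The window of Nupr1 also lies inside the gene's GENCODE M21 span (chr7:126623249-126630861, minus strand).

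**Figure D1:**
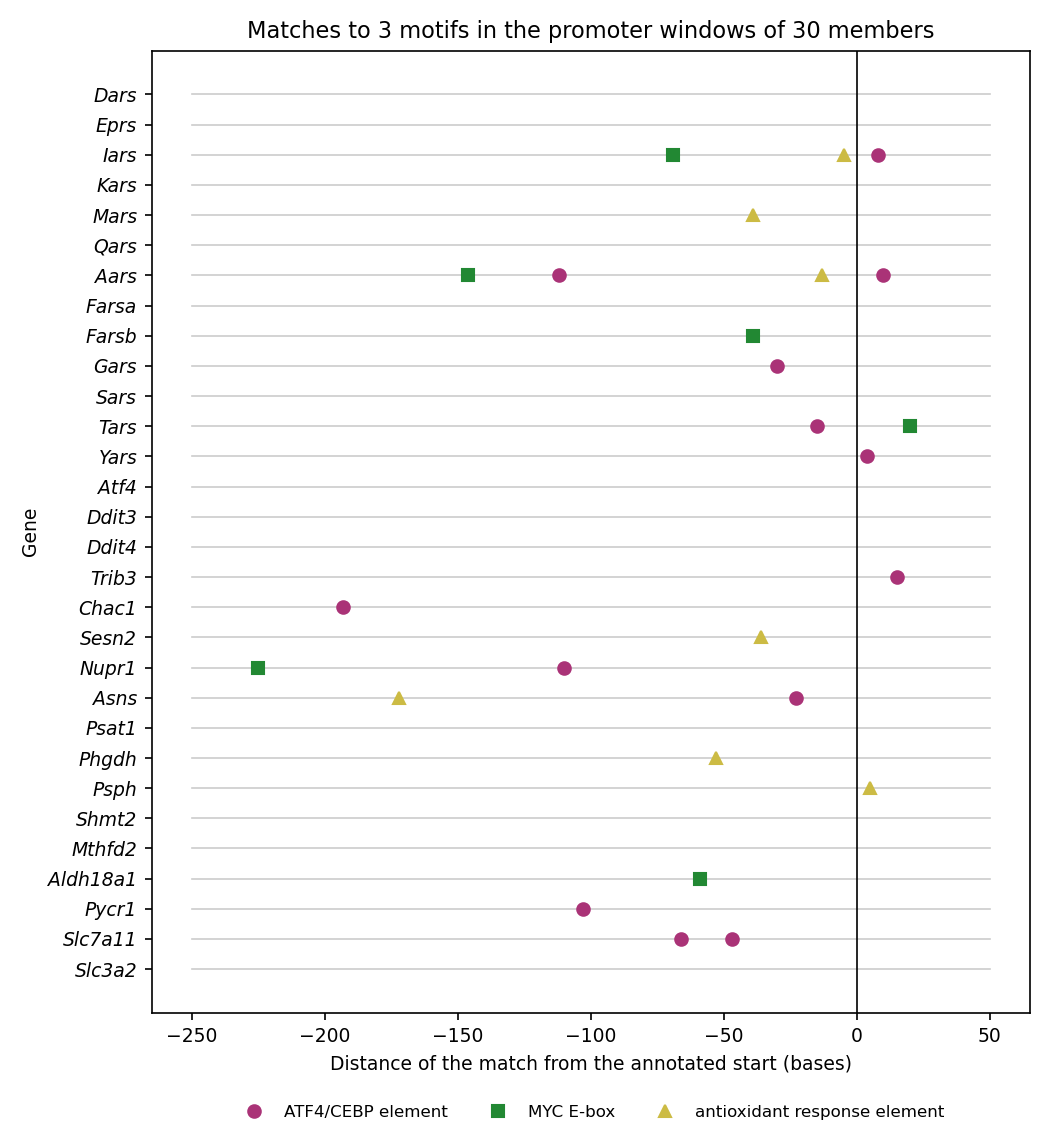
Positions of motif matches in the 300-base promoter windows of the 30 members that have one, one gene per line, with the distance from the annotated start in bases on the horizontal axis. Marks of the ATF4/CEBP element stand in 11 of the 30 lines.

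The 6 libraries held 5985684 to 7233960 reads, and each value is a number of 3′-end fragments scaled by the authors to library size, not divided by gene length. The library midkine 5 stood apart. Its score on the first principal component was 86.0, with the other 5 libraries between −28.2 and 1.94, and mitochondrial ribosomal RNA took 0.377% of its reads and 4.12 to 6.16% elsewhere. Of all tested genes, 34.6% were highest in midkine 5 and 33.7% lowest. Results are therefore given with all 6 libraries and without midkine 5. Marker genes of several cell types also differed between the groups, so the libraries are mixtures whose makeup may vary. Markers of dendritic cells summed to 5799 to 6401 normalized counts in controls and 3739 to 4950 with midkine, with 7 of 10 below every control. Those of monocytes and macrophages summed to 12756 to 14433 and 17763 to 21507 (7 of 10 above every control), and those of neutrophils to 123231 to 136985 and 176221 to 187959 (8 of 10 above). Genes of dividing cells summed to 17593 to 18258 and 11450 to 12695 (5 of 10 below). Of all tested genes, 15.3% lay below every control and 15.5% above. The sums are weighted to genes with many reads, such as S100a8, S100a9, Top2a and H2-Ab1, named after their values were seen. B cell markers summed to 1340 to 1877 and 1404 to 2962, plasma cell markers to 931 to 1125 and 1490 to 1960, mast cell, basophil and eosinophil markers to 964 to 1211 and 1749 to 2707, and stromal markers to 1354 to 1660 and 894 to 1617. T and NK cell markers were low (46.0 to 62.1 and 41.8 to 81.2, with Cd3e, Cd3g, Ncr1 and Gzma not in the table), as were erythroid markers (45.1 to 77.9 and 110 to 176, with Klf1, Car1 and Alas2 among the markers not in the table). The part of these differences in the results was not tested. In such bulk libraries, fewer cells of a type and less RNA per cell cannot be told apart.

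With all 6 libraries, no member passed limma's threshold (adjusted p under 0.05), and neither did any other gene (0% of 13543). At an unadjusted p under 0.05, limma gave 1 member higher and 5 lower, beside 10.4% higher and 9.3% lower of all genes (19.7% in both directions). The count test edgeR called 0 members, beside 0.0738% of all genes (0.0443% higher and 0.0295% lower). DESeq2 called 1, beside 5.92% of the genes to which it gave an adjusted p (3.97% higher and 1.95% lower). The 1 was Slc3a2, higher with midkine, among 36 members with such a p. Without midkine 5, limma called 9 members, beside 18.4% of all genes, and edgeR called the same 9 (18.5% of all genes, 10.5% higher and 7.97% lower). Of these 9, 8 were lower with midkine (21.1% of the members, beside 8.52% of all genes) and 1 was higher (2.63%, beside 9.92%). The 8 were Eprs, Mars, Cars, Farsa, Sars, Vars, Phgdh and Mthfd2, and the 1 was Slc3a2.

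The overlap of the groups gives a description without a model. With all 6 libraries, 6 members lay below every control in each midkine library (15.8%, beside 15.3% of all genes) and 1 lay above (2.63%, beside 15.5%; 30.8% of all genes did either). The 6 were Eprs, Qars, Cars, Sars, Vars and Pycr1. The share below was thus near that of all genes. In midkine 3 and 4 alone, 15 members lay below every control (39.5%, beside 23.8% of all genes) and 1 above (2.63%, beside 23.8%; 47.6% of all genes did either). Midkine 5 had the highest of the 6 values for 17 members and the lowest for 10, so it was not uniformly low or high.

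**Figure D2:**
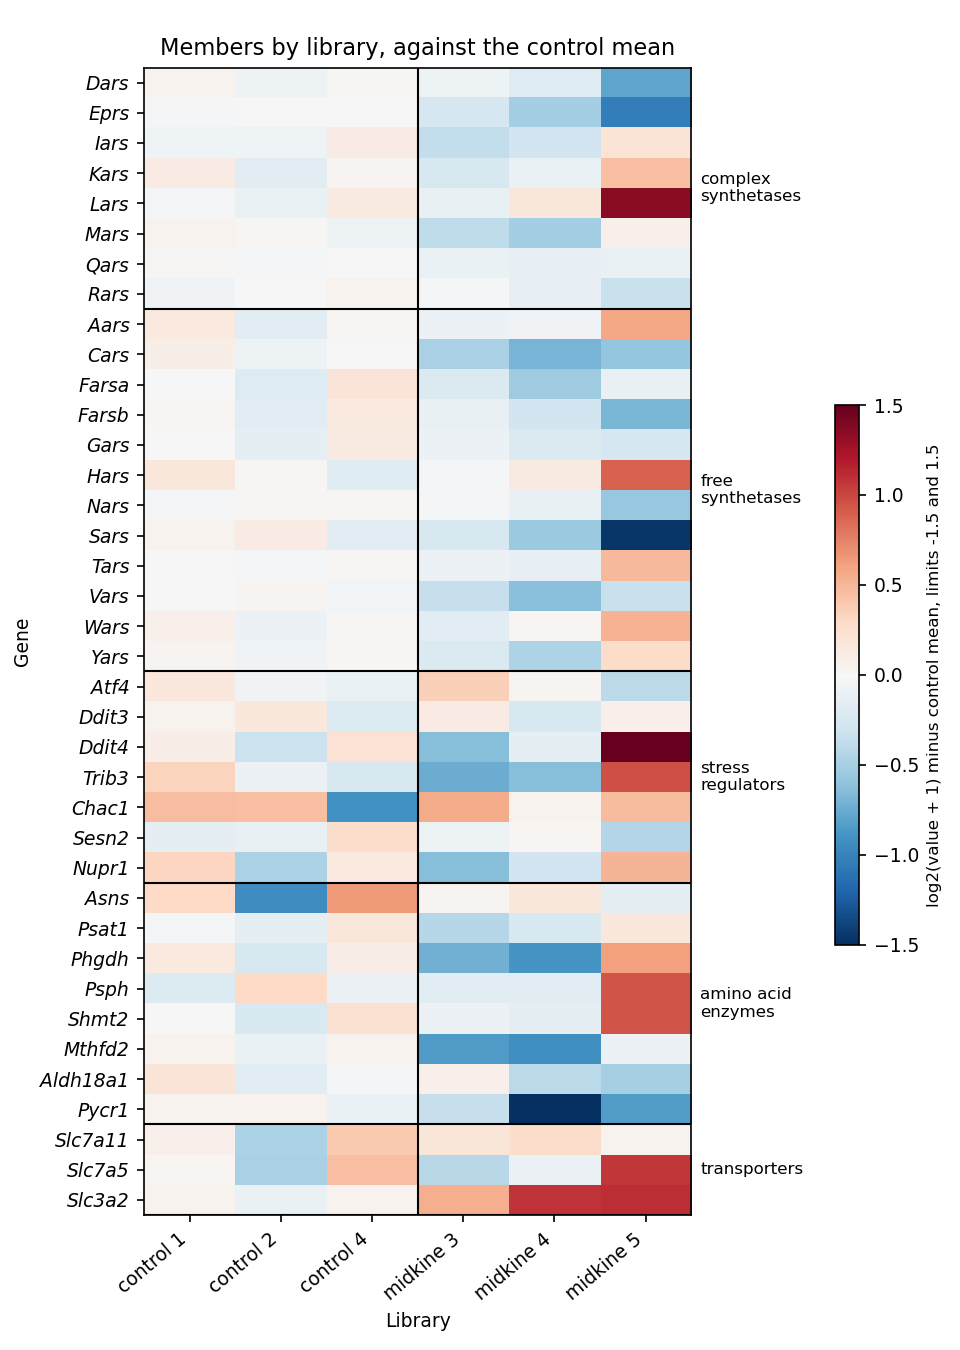
Each of the 38 members (lines, grouped by role) in each of the 6 libraries (columns), coloured by the log2 difference from the mean of the controls. Most synthetase lines are below the control mean in midkine 3 and 4, and midkine 5 departs in both directions.

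Most cytosolic synthetases had lower values with midkine, though none passed with all 6 libraries: 14 of 20 log2 fold changes were below 0 and 6 above. Their median was −0.17 (range −0.75 to 0.47), beside −0.004 for all genes tested, and −0.16 without midkine 5. Relative to the control mean, the median over the 20 was −0.14 in midkine 3, −0.20 in midkine 4 and −0.11 in midkine 5, and 0.02, −0.06 and 0.02 in controls 1, 2 and 4. In midkine 3 and 4, 17 of the 20 were below the control mean in both libraries, beside 39.5% of all genes, and 10 were below every control, beside 23.8% of all genes. Without midkine 5, limma called 6 of the 20 lower and 0 higher, beside 8.52% and 9.92% of all genes. Of the 10 genes of dividing cells, 8 were below every control in both midkine 3 and midkine 4. In midkine 5, 6 were below every control and 4 above, namely Cdk1, Plk1, Birc5 and Aurka, named after their values were seen. The part of these genes in the synthetase values was not tested.

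The synthetases' joint share of the reads shows the same difference in 1 number per library. It was 0.214% in control 1, 0.200% in control 2 and 0.214% in control 4. It was 0.188% in midkine 3, 0.166% in midkine 4 and 0.175% in midkine 5. The groups did not overlap, with means of 0.209 ± 0.00790% and 0.176 ± 0.0110% (SD, n = 3 per group). The lowest control had a Wilson 95% interval of 0.197 to 0.204%, and the highest midkine library one of 0.185 to 0.191%, which cover counting error only. Such a share is weighted to the members with many reads, such as Farsa, Eprs and Nars.

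**Figure D3:**
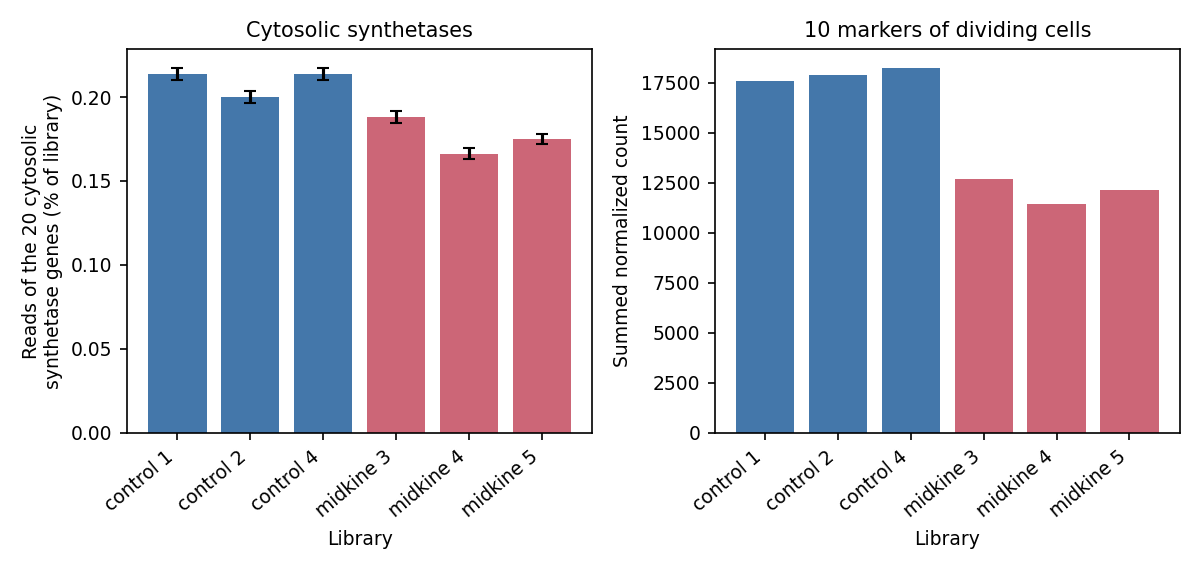
Share of all reads (percent, vertical axis) that fell on the 20 cytosolic synthetases in each library, with Wilson 95% intervals. The 3 midkine libraries lie between 0.166 and 0.188% and the 3 controls between 0.200 and 0.214%.

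In mammals 8 of these synthetases (counting the fused glutamyl-prolyl enzyme Eprs once) sit in the multi-synthetase complex. The 8 genes had a median log2 fold change of −0.16 and the 12 others −0.21, and 2 and 4 of them were called lower without midkine 5 (8.52% of all genes).

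Eprs, the bifunctional synthetase for glutamate and proline, had 1650, 1682 and 1679 normalized counts in controls 1, 2 and 4 and 1406, 1176 and 814 in midkine 3, 4 and 5. The controls were nearly equal and every midkine library was below them, midkine 5 the most. The log2 fold change was −0.60 ± 0.21 (SE; limma, adjusted p = 0.184), and −0.38 without midkine 5 (adjusted p = 0.0148). Mars, the synthetase for methionine, had 363, 353 and 331 in controls and 267, 244 and 367 with midkine. Midkine 5 alone was as high as the controls. Its log2 fold change was −0.28 ± 0.19 (limma, adjusted p = 0.425) with all libraries and −0.45 (adjusted p = 0.0119) without midkine 5. Exons of Mars and Ddit3 overlap on opposite strands, and no source used here gives the strand setting of the counting. Qars, for glutamine, had 338, 331 and 337 in controls and 314, 307 and 312 with midkine. The groups did not overlap, but the log2 fold change of −0.11 ± 0.14 did not pass (limma, adjusted p = 0.669; 0.536 without midkine 5).

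Cars, Vars and Sars are outside the multi-synthetase complex. Cars (for cysteine) had 205, 184 and 192 normalized counts in controls and 138, 119 and 129 with midkine. The highest midkine library was below the lowest control, and midkine 5 lay between the other midkine libraries. The means were 194 ± 10.6 and 129 ± 9.48, a log2 fold change of −0.59 ± 0.16 (limma, adjusted p = 0.125 with all libraries). Without midkine 5 the log2 fold change was also −0.59 and passed (adjusted p = 0.00650). Exons of Cars overlap the pseudogene Gm15580 on the opposite strand. Vars, for valine, had 459, 471 and 445 in controls and 361, 298 and 364 with midkine. The groups did not overlap, and the log2 fold change was −0.43 ± 0.15 (limma, adjusted p = 0.185), and −0.48 without midkine 5 (adjusted p = 0.00742). Sars, for serine, had 862, 909 and 738 in controls and 705, 564 and 303 with midkine. All midkine values were below the controls, midkine 3 narrowly. The log2 fold change was −0.75 ± 0.29 (limma, adjusted p = 0.217), and −0.40 without midkine 5 (adjusted p = 0.0258).

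Phenylalanyl-tRNA synthetase is built from the products of Farsa and Farsb, its alpha and beta subunits. Farsa had 2265, 1966 and 2576 normalized counts in controls and 1944, 1560 and 2081 with midkine, and the groups overlapped. Its log2 fold change was −0.29 ± 0.17 (limma, adjusted p = 0.379), and −0.37 without midkine 5 (adjusted p = 0.0387). Exons of Farsb overlap Sgpp2 on the opposite strand. Farsb had 1030, 896 and 1122 in controls and 937, 830 and 628 with midkine, a log2 fold change of −0.36 ± 0.19 (adjusted p = 0.319; 0.235 without midkine 5). The reads of Farsa over those of Farsb were 2.20, 2.19 and 2.30 in controls and 2.08, 1.88 and 3.31 with midkine. The ratio thus departed most in midkine 5, and the groups overlapped (exact permutation test, p = 1). This is 1 of 7 ratios, all chosen after values were seen; with 3 against 3 libraries the smallest two-sided p is 0.1.

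The other synthetases did not pass limma's threshold with or without midkine 5. Dars, Iars, Rars, Gars, Nars and Yars (for aspartate, isoleucine, arginine, glycine, asparagine and tyrosine) had log2 fold changes from −0.35 (Dars) to −0.13 (Yars) with all libraries. Those above 0 were Kars (lysine, 0.04), Tars (threonine, 0.09), Wars (tryptophan, 0.13), Aars (alanine, 0.14), Hars (histidine, 0.33) and Lars (leucine, 0.47). In each of these 6 midkine 5 was the highest of the 6 libraries. Lars had 470, 448 and 530 normalized counts in controls and 445, 542 and 1226 with midkine. Its log2 fold change was 0.47 ± 0.34 (limma, adjusted p = 0.457) and 0.03 without midkine 5. Aars shares exon sequence with Exosc6 on the same strand, Hars with Hars2 on the opposite one and Yars with C77080 on the opposite one, so their reads may not all be their own.

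**Figure D4:**
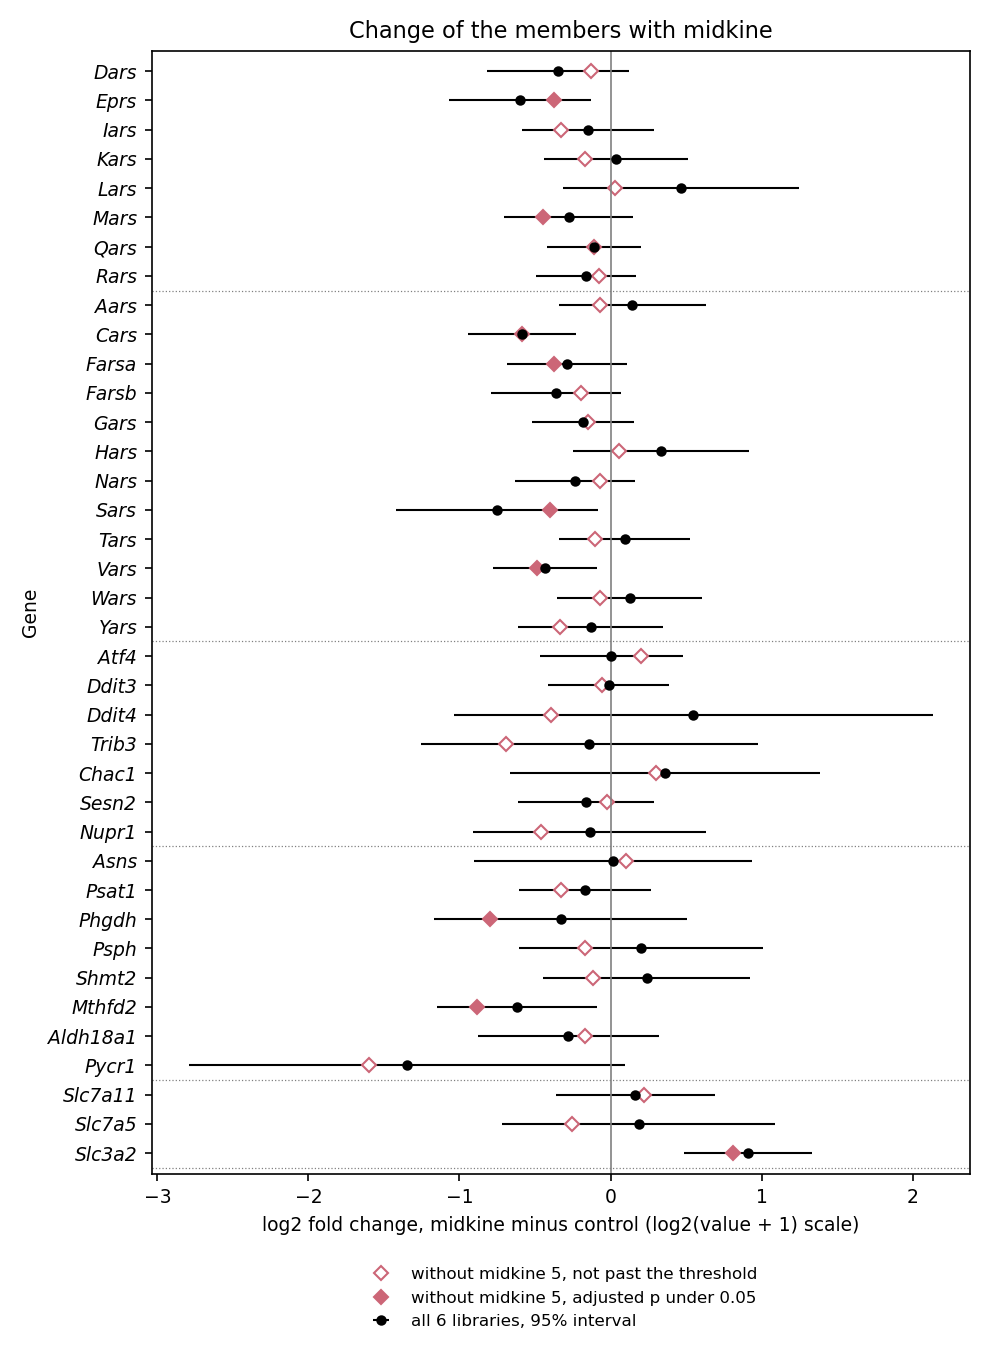
Log2 fold change of each member, midkine minus control, with 95% intervals from limma over all 6 libraries and, as a separate mark, the value without midkine 5. Slc3a2 stands at 0.91, and of the synthetases only Cars, Eprs, Sars and Vars have intervals wholly below 0.

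The regulators of the response showed no common direction: the median of the 7 log2 fold changes was −0.01, and 0 were called with or without midkine 5 (smallest adjusted p without it 0.178). Atf4 mRNA had 3611, 3125 and 3028 normalized counts in controls and 4169, 3351 and 2479 with midkine. Midkine 3 was the highest and midkine 5 the lowest of the 6, so the midkine group spanned the controls. The log2 fold change was 0.01, with a 95% interval of −0.47 to 0.48 (limma, adjusted p = 0.988), and 0.20 without midkine 5 (adjusted p = 0.231). Ddit3, which encodes the stress factor CHOP, had 306, 329 and 256 in controls and 323, 250 and 311 with midkine. The groups overlapped throughout, with a log2 fold change of −0.01 and an interval of −0.41 to 0.39 (limma, adjusted p = 0.973). Both intervals leave room for changes of that size in either direction.

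Ddit4, an inhibitor of mTORC1 signalling also known as REDD1, had 71.8, 53.2 and 77.9 normalized counts in controls and 42.5, 60.2 and 363 with midkine. Its high midkine mean came from midkine 5 alone. The log2 fold change was 0.55 (interval −1.04 to 2.13; limma, adjusted p = 0.674) with all libraries and −0.39 (adjusted p = 0.233) without midkine 5. Trib3, a pseudokinase that restrains ATF4 signalling, had 19.5, 14.3 and 12.8 in controls and 8.70, 9.50 and 30.9 with midkine. It too was highest in midkine 5 and, in the other midkine libraries, below every control (log2 fold change without midkine 5 −0.69, limma, adjusted p = 0.218). Sesn2, a leucine sensor, had 185, 190 and 246 in controls and 194, 209 and 152 with midkine, and the groups overlapped. Nupr1, a stress-induced chromatin protein, had 89.2, 51.1 and 78.9 in controls and 45.4, 58.1 and 102 with midkine. Chac1, which degrades glutathione, was near the lowest counts, with 4.93 to 14.4 in controls and 10.6 to 15.5 with midkine. None of these 5 passed with or without midkine 5.

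The 8 enzymes that make serine, one-carbon units, asparagine and proline had a median log2 fold change of −0.22 (−0.25 without midkine 5), and 2 were called lower without midkine 5, beside 8.52% of all genes. Mthfd2, a mitochondrial enzyme of the folate cycle, had 721, 649 and 726 normalized counts in controls and 388, 367 and 657 with midkine. Midkine 3 and 4 were well below every control, and midkine 5 lay within them. This was a log2 fold change of −0.62 ± 0.23 (limma, adjusted p = 0.206) and −0.89 without midkine 5 (adjusted p = 3.77e-05), the smallest adjusted p of any member in that fit. Phgdh, the first enzyme of serine synthesis, had 363, 279 and 351 in controls and 199, 178 and 503 with midkine. It was below every control in midkine 3 and 4 and above every control in midkine 5. This was a log2 fold change of −0.33 ± 0.37 (limma, adjusted p = 0.628) and −0.80 without midkine 5 (adjusted p = 0.000538).

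Shmt2, which feeds one-carbon units from serine to Mthfd2 in mitochondria, had 186, 157 and 218 normalized counts in controls and 175, 168 and 358 with midkine. Midkine 3 and 4 lay within the control range, and it was highest in midkine 5, while Mthfd2 was not. The reads of Mthfd2 over those of Shmt2 were 3.88, 4.12 and 3.33 in controls and 2.22, 2.19 and 1.84 with midkine. This ratio did not overlap between the groups, with midkine 5 included (means 3.78 ± 0.407 and 2.08 ± 0.211). The exact permutation test gave p = 0.1, the smallest that 3 against 3 libraries can give, or 0.35 adjusted over the 7 ratios. Exons of Shmt2 overlap Ndufa4l2 on the opposite strand. A ratio shows unequal change, and its absolute value also reflects how well each 3′ end was captured.

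Psat1, the second enzyme of serine synthesis, had 337, 314 and 389 normalized counts in controls and 257, 295 and 384 with midkine (log2 fold change −0.17; limma, adjusted p = 0.637). Psph, the last one, had 23.6 to 33.7 in controls and 24.2, 24.3 and 53.6 with midkine. Its exons overlap a Cct6a transcript on the opposite strand. Asns, which makes asparagine and is among the best known ATF4 targets, had 34.9, 14.3 and 44.4 in controls and 29.0, 31.7 and 25.4 with midkine. The controls alone spanned the midkine group. Of the proline enzymes, Aldh18a1 had 27.6 to 35.9 in controls and 21.8 to 32.9 with midkine. Pycr1, the last step of proline synthesis, had 14.4, 14.3 and 12.8 in controls and 10.6, 1.06 and 7.26 with midkine. No overlap was seen, but the counts were low, and the log2 fold change of −1.35 (interval −2.79 to 0.10) did not pass (limma, adjusted p = 0.280; 0.0623 without midkine 5).

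**Figure D5:**
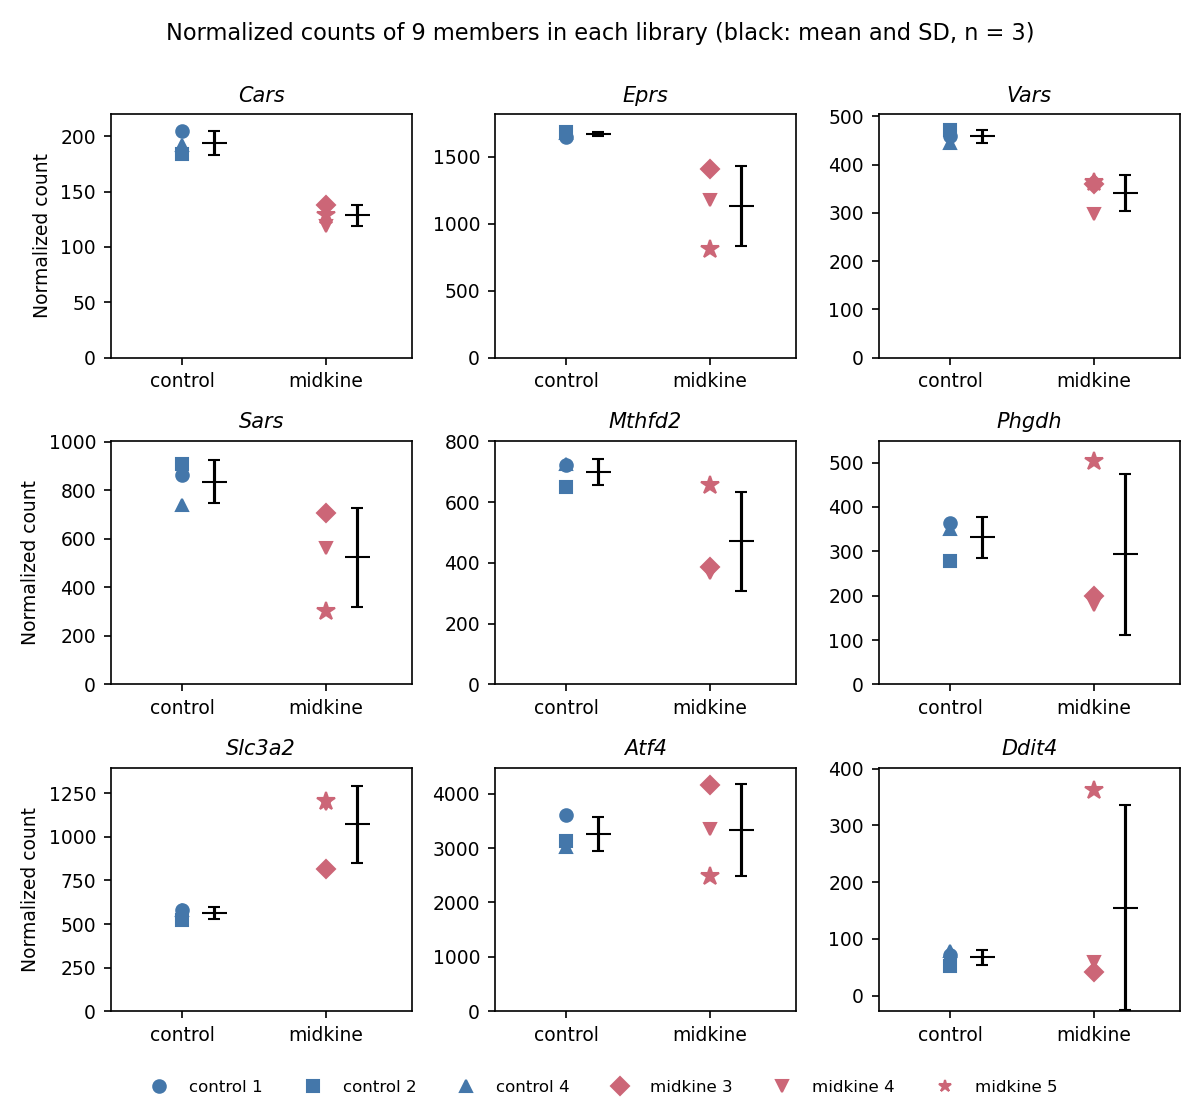
Normalized counts (vertical axes) of the members with the clearest or most split patterns, one panel each, with a point per library and the mean ± SD of each group. Slc3a2 is above every control in all 3 midkine libraries, while Mthfd2 and Phgdh are low in midkine 3 and 4 and not in midkine 5.

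The 3 transporter genes had a median log2 fold change of 0.19 (0.22 without midkine 5). The highest was Slc3a2, which encodes the CD98 heavy chain that carries several amino acid exchangers to the cell surface. Slc3a2 had 582, 523 and 582 normalized counts in controls and 817, 1189 and 1206 with midkine. Every midkine library was above every control, and midkine 4 and 5 were nearly equal. The means were 562 ± 34.1 and 1071 ± 220, a ratio of 1.90. This was a log2 fold change of 0.91, with an interval of 0.48 to 1.33, and limma's adjusted p was 0.0812 with all 6 libraries, the smallest of any member. It passed in DESeq2 (log2 fold change 0.93, adjusted p = 0.00240) and in limma without midkine 5 (0.81, adjusted p = 0.000433). Slc3a2 lies at chr19:8706882-8723369 on the minus strand (GRCm38, GENCODE M21).

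Slc7a5 and Slc7a11 encode light chains that pair with CD98, and neither passed. Slc7a5, which forms the leucine exchanger LAT1, had 133, 93.1 and 179 normalized counts in controls and 97.6, 122 and 273 with midkine. Midkine 3 and 4 lay within the control range, and midkine 5 was above it (log2 fold change 0.19, interval −0.72 to 1.09; limma, adjusted p = 0.806). Slc7a11, which forms the cystine importer xCT, had 241, 164 and 301 in controls and 258, 274 and 236 with midkine. All 3 midkine values lay within the control range (log2 fold change 0.16, interval −0.36 to 0.69; limma, adjusted p = 0.705). The reads of Slc3a2 over those of Slc7a5 were 4.36, 5.62 and 3.26 in controls and 8.37, 9.71 and 4.42 with midkine, and the groups overlapped (exact permutation p = 0.2).

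Other light chains were looked at after the values of Slc3a2 were seen, and Slc7a10 was not among the table's symbols. Slc7a8, which forms the neutral amino acid exchanger LAT2, had 230, 188 and 197 normalized counts in controls and 382, 629 and 1342 with midkine. All midkine values were above the controls, midkine 5 the most (log2 fold change 1.74 ± 0.39; limma, adjusted p = 0.0920; 1.26 without midkine 5, adjusted p = 7.1e-05). Slc7a7, of the y+LAT1 exchanger, had 51.3, 61.4 and 36.5 in controls and 86.0, 101 and 90.8 with midkine, without overlap. Its log2 fold change was 0.91 ± 0.23 (limma, adjusted p = 0.113), and 0.93 without midkine 5 (adjusted p = 0.00666). Slc7a6, of y+LAT2, had a log2 fold change of 0.05. The reads of Slc3a2 over those of Slc7a8 were 2.53, 2.78 and 2.95 in controls and 2.14, 1.89 and 0.899 with midkine (exact permutation p = 0.1, adjusted 0.35). Markers of monocytes and macrophages were above every control in the same libraries, as given above, and their part in the transporter values was not tested.

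None of the members called without midkine 5 held the ATF4/CEBP element in its window. The 11 genes with the element had a median log2 fold change of −0.13 (−0.15 without midkine 5), and the 19 with a window but no element had −0.17 (−0.17). Without midkine 5, limma called 8.52% of all genes lower and 9.92% higher. It called 0 of the 11, and of the 19 it called 6 lower and 1 higher. The other members called were Cars and Vars, which had no window. This is a description of short windows, with no test.

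Of the related pathways, 7 lists gave 114 tested genes that are not members, and limma called 0 of them with all 6 libraries. At an unadjusted p under 0.05 limma gave 13 higher and 10 lower, beside 10.4% and 9.3% of all genes. The count test edgeR called 0 of the 114, beside 0.0738% of all genes. DESeq2 gave an adjusted p to 111 of them and called 4 higher, beside 3.97% of all genes, and 1 lower, beside 1.95%. These were Cebpb (adjusted p = 0.00614), Ppp1r15a (0.0222), Glul (0.0286) and Hmox1 (0.0431), and the lower one Pdia4 (0.0220). Without midkine 5, the share of all genes called was 9.92% higher and 8.52% lower, to be set beside the counts of each list. The mitochondrial synthetases, which charge the tRNAs of mitochondria, had a median of −0.10 over 17 genes (−0.04 without midkine 5), and 2 were called lower and 0 higher without midkine 5. The 2 were Cars2 and Tars2, chosen after their values were seen. By the rule of the smallest unadjusted p, Ears2 had 17.4, 20.5 and 32.5 normalized counts in controls and 33.8, 41.2 and 51.7 with midkine, without overlap (log2 fold change 0.85; limma, adjusted p = 0.193; 0.111 without midkine 5). Mars2 had 54.3 ± 7.14 and 37.1 ± 4.15, also without overlap (adjusted p = 0.224; 0.0541 without midkine 5). Lars2 had a log2 fold change of −0.68 and did not pass either.

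Cofactors and editing factors of synthetases had a median of 0.06 over 10 genes, which turned to −0.02 without midkine 5. Aimp2, a scaffold of the multi-synthetase complex, had 293, 295 and 328 normalized counts in controls and 243, 208 and 227 with midkine. The groups were apart, and the log2 fold change was −0.43 ± 0.15 (limma, adjusted p = 0.185), and −0.44 without midkine 5 (adjusted p = 0.0199). It was the only gene of this list called in that fit. Prorsd1, Xpot (the exporter of tRNA from the nucleus) and Tarsl2 had log2 fold changes of 0.41, 0.31 and −0.52 and did not pass.

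Among 16 genes of the eIF2 kinases, phosphatase subunits and eIF2B, the median was −0.15, with 1 called higher and 2 lower without midkine 5. Ppp1r15a, the inducible subunit GADD34 that directs the removal of phosphate from eIF2, had 58.5, 67.5 and 58.2 normalized counts in controls and 102, 102 and 188 with midkine. All midkine values were above the controls. This was a log2 fold change of 1.02 (limma, adjusted p = 0.118), and 0.73 without midkine 5 (adjusted p = 0.00787). Eif2b4, a subunit of the exchange factor of eIF2, had 298 ± 23.0 and 220 ± 13.5, without overlap (−0.44; adjusted p = 0.183; 0.0243 without midkine 5). Ppp1r15b and Eif2b3 had log2 fold changes of 0.28 and −0.34 and did not pass. The other gene called lower was Eif2b5, chosen after its values were seen.

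Other ATF4 partners and targets had a median of −0.14 over 20 genes (−0.06 without midkine 5), with 4 called higher and 2 lower without midkine 5. Cebpb, a C/EBP factor that pairs with ATF4 and also acts in myeloid differentiation, had 449, 362 and 428 normalized counts in controls and 601, 765 and 891 with midkine. There was no overlap between the groups (log2 fold change 0.85 ± 0.19; limma, adjusted p = 0.0881; 0.000714 without midkine 5). Hmox1, a heme-degrading enzyme also abundant in macrophages, had 1007 ± 149 and 1619 ± 307 (adjusted p = 0.132; 0.00479 without midkine 5). Map1lc3b, of autophagosomes, had 784 ± 22.2 and 1039 ± 45.6 (adjusted p = 0.169; 0.0066 without midkine 5). Slc1a4, a neutral amino acid transporter, had 17.1 ± 6.24 and 7.75 ± 1.72, without overlap and without passing in either fit (adjusted p = 0.208 and 0.105). The rest called were Atf3 (higher), Atf5 and Slc38a2 (lower), chosen after their values were seen. Atf3 had 308, 352 and 230 in controls and 426, 432 and 131 with midkine, so midkine 5 was the lowest of the 6.

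Other enzymes of serine, folate and proline metabolism had a median of 0.16 over 17 genes (−0.08 without midkine 5), with 1 called higher and 1 lower without midkine 5. Glul, which makes glutamine, had 946, 964 and 875 normalized counts in controls and 1454, 1932 and 1221 with midkine. No overlap was seen (log2 fold change 0.70 ± 0.19; limma, adjusted p = 0.125; 0.85 without midkine 5, adjusted p = 9.59e-05). Gcsh, Asrgl1 and Mthfd2l had log2 fold changes of 0.53, −0.39 and 0.50 and did not pass. Shmt1, the cytosolic counterpart of Shmt2, was the gene called lower and was chosen after its values were seen.

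The unfolded protein response of the endoplasmic reticulum, which also feeds into eIF2, had a median of 0.06 over 15 genes (0.03 without midkine 5), with 2 called in each direction without midkine 5. Pdia4, a disulfide isomerase, had 669 ± 83.5 and 389 ± 82.2 normalized counts (log2 fold change −0.80; limma, adjusted p = 0.106; 0.00149 without midkine 5). Hsp90b1, the chaperone GRP94, had 6370 ± 770 and 4838 ± 379 (adjusted p = 0.224; 0.0467 without midkine 5). Dnajb9 had 65.5 ± 15.4 and 118 ± 26.8 (adjusted p = 0.140; 0.0254 without midkine 5). Edem1, which sends misfolded proteins to degradation, had 381 ± 31.4 and 574 ± 144 (adjusted p = 0.191; 0.0372 without midkine 5). None of the 4 overlapped between the groups.

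The sensing of amino acids upstream of mTORC1 had a median of 0.20 over 19 genes, with 4 called higher and 1 lower without midkine 5. Rragc, a GTPase that brings mTORC1 to the lysosome, had 568, 565 and 505 normalized counts in controls and 834, 938 and 629 with midkine. The groups were apart (log2 fold change 0.53; limma, adjusted p = 0.179; 0.70 without midkine 5, adjusted p = 0.000264). Its partner Rraga had 363, 425 and 275 in controls and 484, 543 and 1125 with midkine (adjusted p = 0.185; 0.0135 without midkine 5). Depdc5, of the GATOR1 complex that inhibits these GTPases, had 110 ± 14.2 and 72.6 ± 8.43, without overlap (adjusted p = 0.170; 0.0497 without midkine 5). Flcn had a log2 fold change of 0.60 and did not pass. The others called higher were Sesn1 and Fnip1, chosen after their values were seen.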

How the data were processed

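RNA of 6 samples was measured with QuantSeq 3′ FWD libraries, per the labels' protocols: the kit yields 1 fragment per transcript near its 3′ end. The deposited file gives, for each gene symbol, counts scaled to library size, treated here as a signal. The submitters' processing notes name TopHat2 2.0.10 and Bowtie 1.0.0, then HTSeq, DESeq2, FastQC 0.11.0 and SAMtools 0.1.19, with the build GRCm38 (mm10). Not given in the sources used here are the annotation release, strand setting and treatment of multiply mapped reads.

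Within a library all values were whole multiples of 1 step, as when the authors divide counts by a size factor (here 0.947 to 1.10). Dividing by the step gave whole reads for 100% of values (tolerance 0.01 reads), and 5985684 to 7233960 reads per library. Wilson 95% intervals cover counting error only. Columns of other samples numbered 0.

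Groups came from the sample titles. The main test was limma 3.58.1 (trend, R 4.3.3) on log2(value + 1) for the 13543 genes with a mean of at least 5, two-sided, Benjamini-Hochberg over all of them, threshold 0.05. Fold changes are midkine minus control on that scale, which understates low genes, and values are normalized counts with mean ± SD (n = 3). The recovered reads were tested with edgeR 4.0.16, which called 10 genes, and DESeq2 1.42.0, which called 684 of 11549. Other settings changed the pseudocount, filter, scaling, weights and libraries used. Ratios of reads used exact two-sided permutation tests.

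The members and lists were chosen with earlier results of these data known. Every member may be named, and from each related list the 4 genes with the smallest unadjusted p; a few items are not reported here. The lists held 124 genes, of which 119 were in the table and 114 tested. Cth, Cbs, Stc2, Gldc and Amt had no row. Promoter windows are from RefSeq, and gene positions and exon overlaps from GENCODE M21.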

Additional observations from a re-analysis of the deposited data

How the results depend on the processing

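The settings tried were 16. The synthetase median stayed below 0 in all 16 (−0.24 with quantile normalization; leaving out 1 library at a time, −0.23 to −0.13). Leaving out 1 library, the enzyme median was −0.41 (without control 2) to −0.086, that of the stress regulators −0.07 to 0.11, that of the transporters −0.06 to 0.49. Members below every control numbered 6 to 15 and above 1 to 2, and limma called 0 to 8 members lower and 0 to 1 higher. The 15 below, the 8 called lower and the 1 called higher came without midkine 5. There 23.8% of all genes lay below every control, and limma called 8.52% lower and 9.92% higher. Below every control were 11 with quantile normalization and 14 with edgeR without midkine 5. The shares of all genes in these settings were not counted, so neither count is a result about the members. DESeq2, array weights and edgeR without midkine 5 each called 1 member higher, beside 459 of 11549, 2589 of 13543 and 1428 of 13543 genes. Array weights called 12 members lower, beside 2487 of 13543 genes. Lower in edgeR without midkine 5 were 8 members, beside 1080 of 13543 genes. The weight of midkine 5 in the array-weights fit was 0.0967, and those of the others were 0.727 to 4.36. Of 38 members, 21 kept the sign of their log2 fold change throughout. With array weights it turned for Aars (−0.084), Ddit4 (−0.21), Kars (−0.14), Psph (−0.084), Sesn2 (0.027), Shmt2 (−0.13), Slc7a5 (−0.15), Tars (−0.11) and Wars (−0.011). With edgeR without midkine 5 it turned for Aars (−0.070), Asns (−0.039), Ddit4 (−0.40), Kars (−0.16), Psph (−0.18), Shmt2 (−0.12), Slc7a5 (−0.29), Tars (−0.094) and Wars (−0.063). DESeq2 gave Asns −0.12 and Trib3 0.085, edgeR Asns −0.13 and Trib3 0.086, a pseudocount of 5 Asns −0.00145, and quantile normalization Atf4 −0.13 and Kars −0.016. Leaving out 1 library at a time, the sign turned within these ranges: Aars −0.071 to 0.26, Asns −0.45 to 0.34, Atf4 −0.17 to 0.20, Chac1 −0.10 to 0.59, Ddit3 −0.11 to 0.10, Ddit4 −0.39 to 1.14, Kars −0.17 to 0.18, Nupr1 −0.46 to 0.11, Psph −0.17 to 0.39, Shmt2 −0.11 to 0.43, Slc7a11 −0.074 to 0.36, Slc7a5 −0.25 to 0.49, Tars −0.10 to 0.20, Trib3 −0.69 to 0.17, Wars −0.069 to 0.27 and Yars −0.34 to 0.032. The cause was not tested. Depth limits mainly Pycr1, Chac1 and Trib3, the members with the fewest reads. No paired analysis was possible because the groups share only replicate number 4.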
